A study of Mus musculus with 9 samples.

Results

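Hearts of Sting-/- mice given doxorubicin were compared with hearts of wild-type (WT) mice given doxorubicin, called Sting-/- DOX and WT DOX here. The comparison took all libraries with these labels, 3 in each group and 6 of the 9 in the series. The other 3 came from WT hearts after saline and are used only to give a level without the drug. RNA was sequenced from whole heart, so every heart cell type contributes to each value. Doxorubicin, an anthracycline used against cancer and known for harm to heart muscle, was given at a low dose meant to produce chronic cardiotoxicity. Dose, schedule, strain, age and sex, and how the Sting allele was made, are not given in the sources used here, so whether the groups match in age or in the pieces of heart sampled cannot be told from the labels. Both groups carry the treatment, and no untreated Sting-/- heart was analysed here, so a difference present before treatment and a difference in the response to the drug cannot be told apart. Nothing in the labels says that the libraries were made from different animals. The p-values therefore reflect the spread among these libraries, and that spread may be technical only.

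STING is a membrane protein of the endoplasmic reticulum that binds cyclic GMP-AMP, the messenger made by cGAS when it meets DNA in the cytosol. Bound STING moves to the Golgi and recruits TBK1, which phosphorylates IRF3 to switch on type I interferon, and it also activates NF-kB. Interferon then acts through its receptors, JAK kinases and STAT factors on a large set of interferon-stimulated genes, while NF-kB drives cytokines, chemokines and adhesion molecules. The series asks how this pathway, in endothelial cells above all, bears on heart injury, on the NAD-consuming enzyme CD38 and on mitochondria.

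Expression was given as FPKM, the number of sequenced fragments of a gene divided by its transcript length and by the library's total, a level that can be compared between genes. Of 16873 genes in the files, 12652 had a mean of at least 1 FPKM over the 6 libraries and were tested as log2(FPKM + 1) with limma, a linear model that shares its estimate of spread across genes. The threshold was an adjusted p of 0.05. All fold changes below are Sting-/- DOX minus WT DOX on that scale, and for low genes they come out smaller than the ratio of the levels. The approximate depth was 12900000 to 13800000 fragments per WT DOX library and 8300000 to 8500000 per knockout library, so low genes are less precise in the knockout group. Libraries of a group lay close together (Pearson's r across genes of 0.995 to 0.9967 within WT DOX, and of 0.9946 to 0.995 within Sting-/- DOX) and the groups lay apart (0.8514 to 0.855). Genes with at least 1 FPKM numbered 12127 to 12154 per WT DOX library and 12762 to 12799 per knockout library. In WT DOX the top 10 genes by level took up 11.5% to 12% of all FPKM and encoded sarcomere proteins, myoglobin, the fatty acid carrier Fabp3, a small heat shock protein and the glycolytic enzyme Gapdh. In the knockout libraries that share was 8.09% to 8.44%, and the leading genes included Fabp4, Tpt1, Sparc, Apoe, Tmsb4x and Nppa. The heart label was checked in both groups against Myh6, the alpha myosin heavy chain of adult heart muscle, at 3435, 3089 and 3158 FPKM in WT DOX and 757, 818 and 845 FPKM in Sting-/- DOX.

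Sting1 (gene ID 72512), the gene named by the label, was at 17.5, 18.0 and 17.8 FPKM in WT DOX and 0.06, 0 and 0 FPKM in Sting-/- DOX. Its level in the saline libraries was 5.10, 5.43 and 5.93 FPKM. The knockout libraries were thus listed at or near 0, and the difference passed (limma adjusted p = 2.61e-11), while an exact two-sided permutation test gave p = 0.1, the smallest that 3 against 3 allows. The 10 protein-coding genes on each side of Sting1 were listed by gene order. Of these 20, 15 were tested, 7 were higher, 4 lower and 4 not called, with a median log2 fold change of -0.01. Over all genes tested, 54.4% were higher and 29.0% lower. The values of the neighbours ran from -1.99 for Prob1 to 1.49 for Igip. The nearest tested genes were Ecscr (1.11), an endothelial surface protein, and Ube2d2a (0.24, and -0.022 with median-ratio scaling), a ubiquitin-conjugating enzyme.

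Of the 12652 genes tested, 6887 (54.4%) were higher in Sting-/- DOX and 3669 (29.0%) were lower, so that 83.4% were called and 2096 genes were not. At least a 2-fold change was called in 2222 genes (17.6%) upward and in 1251 (9.89%) downward. The ranges of the groups did not overlap for 10717 genes (84.7%), with 55.1% of all genes entirely higher and 29.6% entirely lower. The median of all genes was 0.26, and counts for any list below are to be read against these shares. With median-ratio scaling the median of all genes was 0.03 and 51.9% of called genes were higher, against 65.2% as deposited. Relative to the median of all genes, a member with a log2 fold change near 0.26 therefore stayed level with the bulk of genes.

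**Figure D1:**
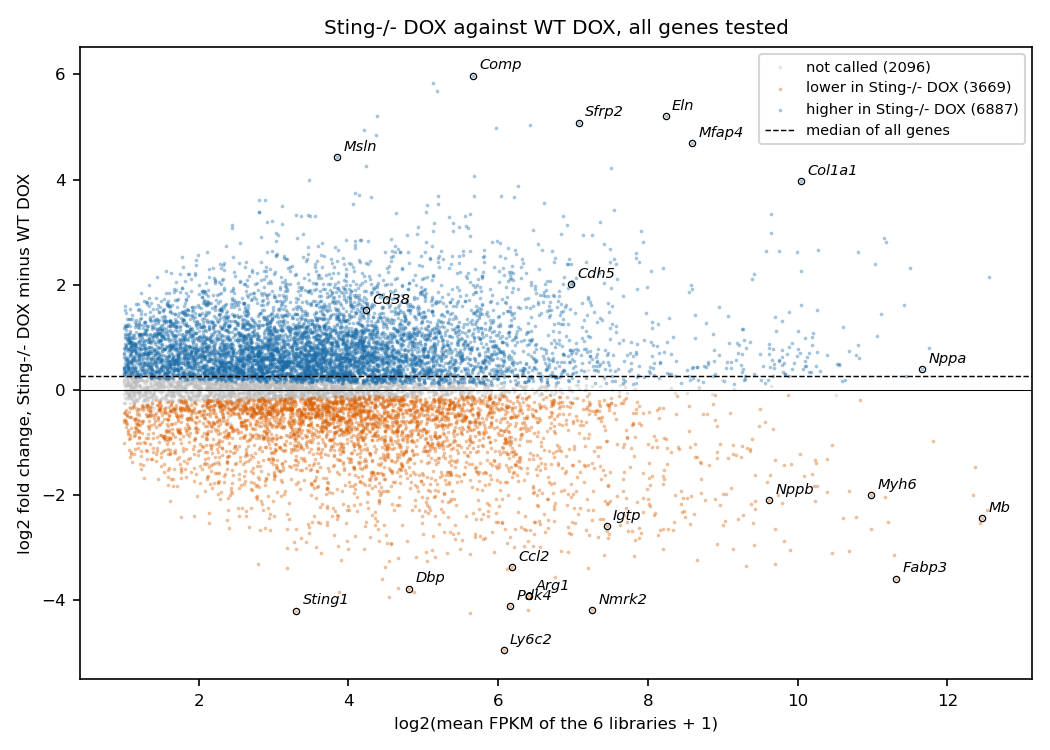
Log2 fold change (Sting-/- DOX minus WT DOX, y axis) against the log2 of the mean FPKM plus 1 over the 6 libraries (x axis), 1 point per tested gene, coloured by call at a limma adjusted p of 0.05. Named genes are circled, from Comp at 5.98 to Ly6c2 at -4.96, and the dashed line is the median of all genes at 0.26.

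Among genes averaging at least 5 FPKM in the higher group, the 12 largest rises ran from Comp to Msln and included Ptn, Mdk, Eln, Sfrp2 and Mfap4. The 12 largest falls, predicted genes left out, began with Ly6c2 and the targeted gene Sting1 and included Nmrk2, Pdk4, Arg1, Chil3, Fbp2, Dbp, Fabp3 and Dgat2. Comp, an extracellular glycoprotein of cartilage and tendon, was at 0.75, 0.45 and 0.57 FPKM in WT DOX and 102, 97.1 and 97.1 FPKM in Sting-/- DOX. Col8a2, a short-chain collagen, was at 0.19, 0.13 and 0.16 FPKM in WT DOX and 38.3, 32.3 and 34.3 FPKM in Sting-/- DOX. Both genes were near 0 in every WT DOX library and high in every Sting-/- DOX library. Msln, the mesothelial surface protein mesothelin, was at 0.22, 0.4 and 0.22 FPKM in WT DOX and 28.2, 26.4 and 25.04 FPKM in Sting-/- DOX, and Mfap4, a protein of elastic microfibrils, was at 26.2, 27.3 and 29.1 FPKM in WT DOX and 781, 731 and 711 FPKM in Sting-/- DOX (log2 fold changes 4.43 and 4.70). Among the falls, Fabp3, the fatty acid carrier of heart muscle, was at 4853, 4526 and 4765 FPKM in WT DOX and 387, 385 and 399 FPKM in Sting-/- DOX (log2 fold change -3.59, SE 0.038, limma adjusted p = 6.41e-12). Dgat2, which makes triglycerides, was at 138, 115 and 125 FPKM in WT DOX and 10.3, 10.7 and 11.9 FPKM in Sting-/- DOX. Srl, which encodes the sarcoplasmic reticulum protein sarcalumenin, had a log2 fold change of -3.38 and Fbp2, a muscle gluconeogenic enzyme, one of -3.84. In whole-heart RNA, fewer cells of a type and less RNA per cell cannot be told apart, and this holds for every marker list below.

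**Figure D2:**
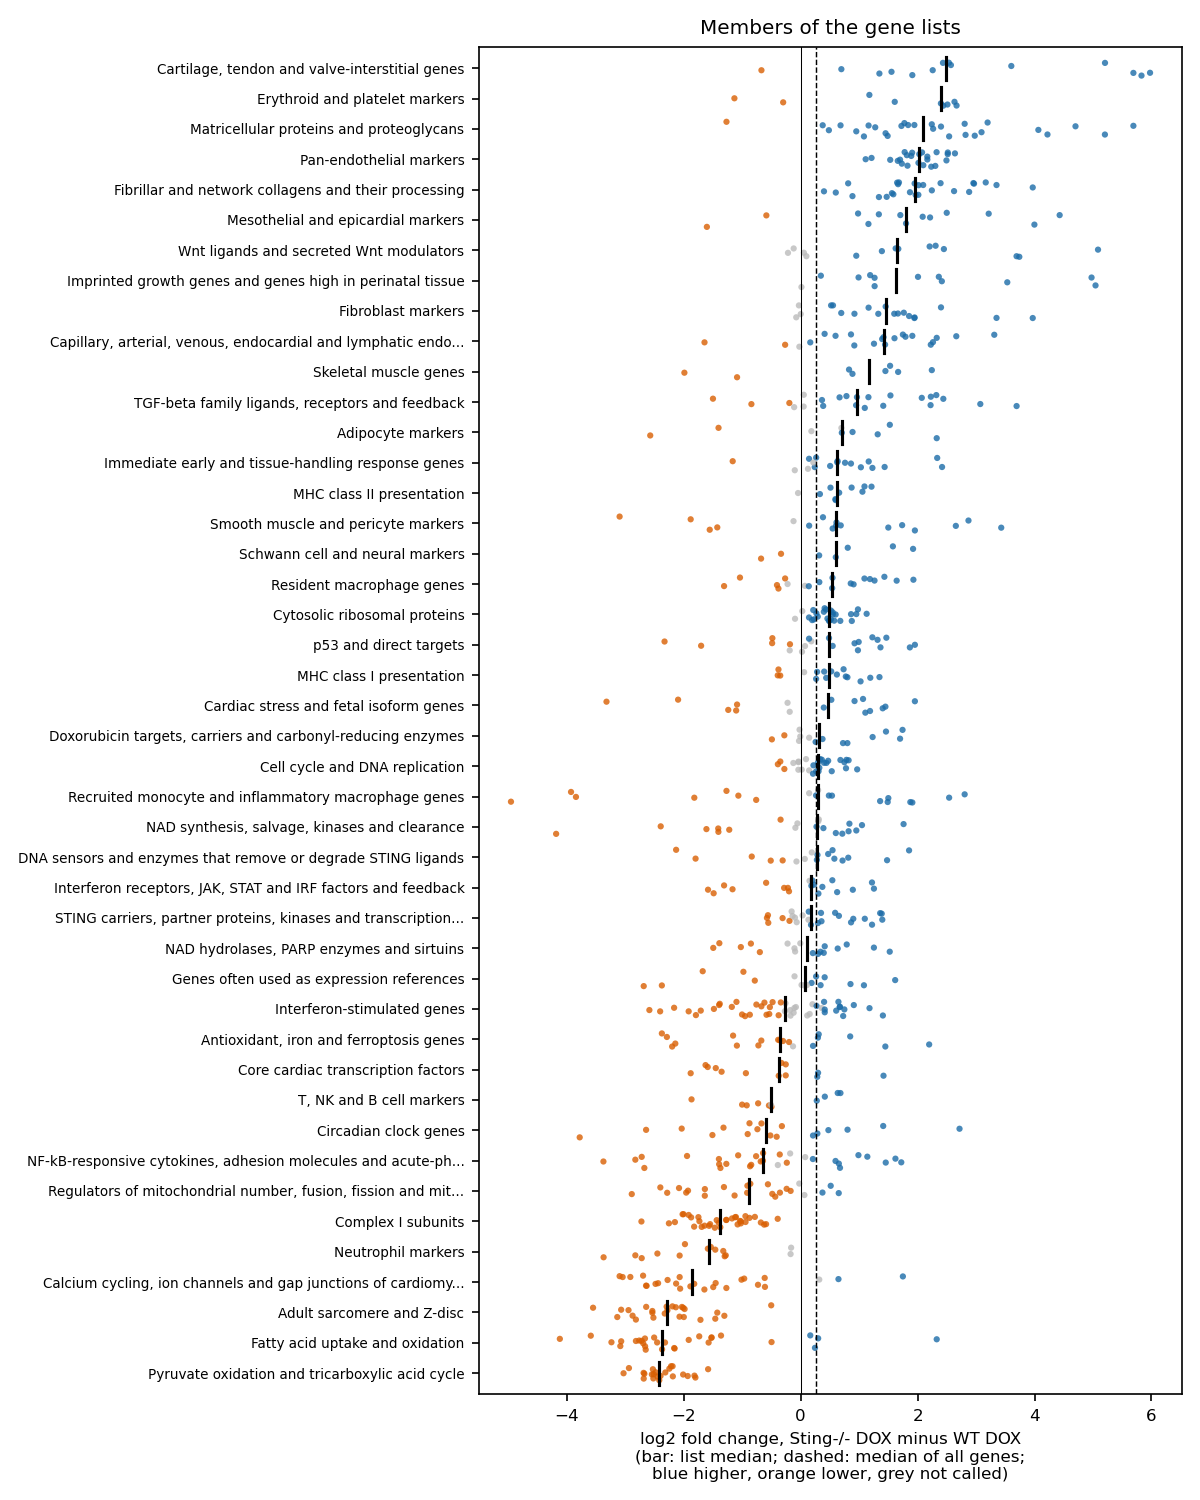
Log2 fold change (x axis) of each tested member of the gene lists (y axis, ordered by median), with blue for higher, orange for lower and grey for not called in Sting-/- DOX. The list medians, over members that passed the filter, run from -2.42 for the tricarboxylic acid cycle to 2.48 for cartilage and tendon genes, around a median of 0.26 for all genes (dashed).

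As a list, the genes of the DNA-sensing step had shares close to those of all genes tested. Of 17 tested genes of DNA sensing and of ligand removal, 9 were higher, 5 lower and 3 not called (52.9% and 29.4% higher and lower, against 54.4% and 29.0% of all genes), with a median of 0.28, near that of all genes. Cgas, the sensor itself, was at 2.18, 2.33 and 2.39 FPKM in WT DOX and 2.18, 2.97 and 2.29 FPKM in Sting-/- DOX and was not called (log2 fold change 0.07, SE 0.1, limma adjusted p = 0.528), and the ranges of the groups overlapped. Zbp1, a sensor of Z-form nucleic acid that is itself interferon-induced, was at 53.8, 75.2 and 63.9 FPKM in WT DOX and 13.5, 12.2 and 15.9 FPKM in Sting-/- DOX (log2 fold change -2.13, SE 0.12, limma adjusted p = 7.29e-08). All 3 knockout libraries lay far below the lowest WT DOX library. Ifi204, a DNA-binding protein of the PYHIN family, had a log2 fold change of -1.80, and its neighbour in that family, Ifi203, one of 1.48. These paralogs share sequence, so reads may have been assigned to the wrong member. Enpp1, the extracellular enzyme that degrades cyclic GMP-AMP, was at 4.25, 3.16 and 3.92 FPKM in WT DOX and 16.9, 15.0 and 16.7 FPKM in Sting-/- DOX (log2 fold change 1.85, SE 0.091, limma adjusted p = 2.64e-08). Tfam, which packs mitochondrial DNA, was lower (-0.84).

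Among kinases, transcription factors and partner proteins downstream of STING, 14 of 25 were higher, 5 lower and 6 not called (median 0.18, against -0.06 with 10 higher and 10 lower under median-ratio scaling). The shares higher and lower were 56% and 20%, against 54.4% and 29.0% of all genes. Irf3, the factor that TBK1 phosphorylates, was at 25.4, 24.3 and 26.3 FPKM in WT DOX and 56.1, 61.9 and 63.3 FPKM in Sting-/- DOX (log2 fold change 1.22, SE 0.0559, limma adjusted p = 1.58e-08), so every knockout library was above every WT DOX library. Tbk1 was at 9.51, 10.6 and 10.4 FPKM in WT DOX and 11.5, 11.4 and 11.9 FPKM in Sting-/- DOX, higher by 0.18 (limma adjusted p = 0.0178), but it turned to -0.063 under median-ratio scaling and to -0.078 under quantile normalization. Leaving out 1 library also ended the call, namely WT DOX library 1 (0.13) or Sting-/- DOX library 3 (0.16). Genes of the NF-kB arm included the kinase Ikbkb (1.36) and the subunits Rela (1.10) and Relb (1.40), all higher, whereas the subunit Rel was lower (-0.56). Stim1, the calcium sensor that holds STING in the endoplasmic reticulum, was higher (1.39). Rnf5 and Trim56, ubiquitin ligases that act on STING, were lower (-0.58 and -0.55).

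Of the receptor and STAT step of interferon signalling, 10 of 19 members were higher, 8 lower and 1 not called (median 0.18, against -0.06 with 4 higher and 8 lower under median-ratio scaling). The shares higher and lower were 52.6% and 42.1%, against 54.4% and 29.0% of all genes. Irf7, the factor that amplifies interferon production, was at 183, 239 and 221 FPKM in WT DOX and 90.8, 98.2 and 94.3 FPKM in Sting-/- DOX (log2 fold change -1.17, SE 0.084, limma adjusted p = 4.87e-07). In saline hearts Irf7 was at 85.3, 92.1 and 87.8 FPKM, so its knockout level under doxorubicin lay close to the level without the drug. Usp18, an interferon-induced brake on the receptor, was lower (-1.31). The receptor genes Ifnar1 (0.89) and Ifngr1 (1.25) and the kinase Tyk2 (1.22) were higher, while Ifngr2, the other chain of the type II receptor, was lower (-1.49).

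Interferon-stimulated genes did not move as a block. Of 47 tested, 23 were lower, 13 higher and 11 not called, with a median of -0.27. The shares lower and higher were 48.9% and 27.7%, against 29.0% and 54.4% of all genes. Igtp, an interferon-inducible GTPase that restricts intracellular parasites, was at 163, 437 and 307 FPKM in WT DOX and 44.5, 46.4 and 46.1 FPKM in Sting-/- DOX (log2 fold change -2.59, SE 0.272, limma adjusted p = 8.98e-06). Ifit1, which binds foreign RNA caps, was at 62.4, 131 and 99.8 FPKM in WT DOX and 15.7, 18.1 and 16.8 FPKM in Sting-/- DOX (log2 fold change -2.40, SE 0.208, limma adjusted p = 1.99e-06). Isg15, a ubiquitin-like modifier, was at 69.9, 115 and 87.8 FPKM in WT DOX and 34.9, 46.0 and 43.1 FPKM in Sting-/- DOX (log2 fold change -1.10, SE 0.158, limma adjusted p = 9.6e-05). In each of these genes WT DOX library 1 was the lowest and library 2 the highest of its group, and the knockout libraries lay close together below all of them. Cxcl10, a chemokine for T cells, was at 14.3, 16.7 and 18.3 FPKM in WT DOX and 4.72, 6.21 and 6.09 FPKM in Sting-/- DOX (log2 fold change -1.38, SE 0.107, limma adjusted p = 8.7e-07). Iigp1 (-2.17), Ifit3b (-1.92) and Oas3 (-1.79), an antiviral oligoadenylate synthetase, were lower too. Ifit3b has a near-identical copy in Ifit3, and Iigp1 and Igtp belong to a family of similar GTPases, so their single values are uncertain.

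A smaller number of the list went the other way. Ifitm2, which blocks virus entry, was at 296, 289.8 and 291 FPKM in WT DOX and 769, 771 and 789 FPKM in Sting-/- DOX (log2 fold change 1.41, SE 0.033, limma adjusted p = 1.55e-10). Gbp4, a guanylate-binding protein, was higher (1.18), as was Isg20, an exonuclease (0.91). Rsad2, the antiviral enzyme viperin, chosen after its values were seen, was at 14.1, 21.6 and 17.8 FPKM in WT DOX and 28.4, 30.5 and 30.3 FPKM in Sting-/- DOX (log2 fold change 0.73, SE 0.119, limma adjusted p = 0.000243). Its saline level was 14.0, 19.6 and 15.5 FPKM. All 3 knockout libraries of Rsad2 were above the highest WT DOX library, the reverse of Ifit1 and Isg15. With median-ratio scaling the list split into 29 lower and 9 higher, and Rsad2 was higher by 0.48.

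The promoters of both kinds of gene were read to see whether the interferon-stimulated response element tells them apart. The element was searched as GAAA, any 2 bases and GAAA on both strands in the 300 bases around the start (250 before, 50 after) of RefSeq promoters of GRCm38.p6. It was found in 391 of 10116 tested genes with a promoter sequence (3.87%). On the list it was found in 21 of 38 such genes (55.3%), namely in 11 of the 18 that were lower (61.1%), 6 of the 11 that were higher (54.5%) and 4 of the 9 not called (44.4%). The shares of lower and higher genes were thus similar in these small numbers. The windows below, 60 bases from the stretch before the start and written 5′ to 3′ on the gene's strand, show the element in capitals (as TTTC, 2 bases and TTTC where it lies on the opposite strand). They were chosen after their values were seen, 4 from genes that were lower and then 4 from genes that were higher.
Isg15, chr4:156200856-156200915, minus strand: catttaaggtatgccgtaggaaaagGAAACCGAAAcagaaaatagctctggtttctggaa
Ifit1, chr19:34640779-34640838, plus strand: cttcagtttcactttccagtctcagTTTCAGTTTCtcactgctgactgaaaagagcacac
Igtp, chr11:58199496-58199555, plus strand: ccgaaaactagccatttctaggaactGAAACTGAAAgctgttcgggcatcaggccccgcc
Cxcl10, chr5:92349068-92349127, minus strand: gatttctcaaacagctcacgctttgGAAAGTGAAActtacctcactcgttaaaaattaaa
Rsad2, chr12:26456538-26456597, minus strand: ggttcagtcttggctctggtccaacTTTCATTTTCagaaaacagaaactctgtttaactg
Ifitm2, chr7:140955973-140956032, minus strand: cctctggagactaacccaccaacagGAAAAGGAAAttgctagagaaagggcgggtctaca
Tgtp1, chr11:48992289-48992348, minus strand: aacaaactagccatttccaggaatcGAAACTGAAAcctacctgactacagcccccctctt
Gbp3, chr3:142559974-142560033, plus strand: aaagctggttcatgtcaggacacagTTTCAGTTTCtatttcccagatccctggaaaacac
Igtp, which was lower, and Tgtp1, a GTPase of the same wider family that was higher (0.65), carry the same 10 letters of the element. Ifit1 and Gbp3 (0.41, a call lost with median-ratio scaling at 0.15) also share theirs, on the opposite strand, although their calls differ in direction. A match is a description of these letters and not a measured binding site. Some promoters hold overlapping matches, as Isg15 does, and only 1 is shown for each gene.

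**Figure D3:**
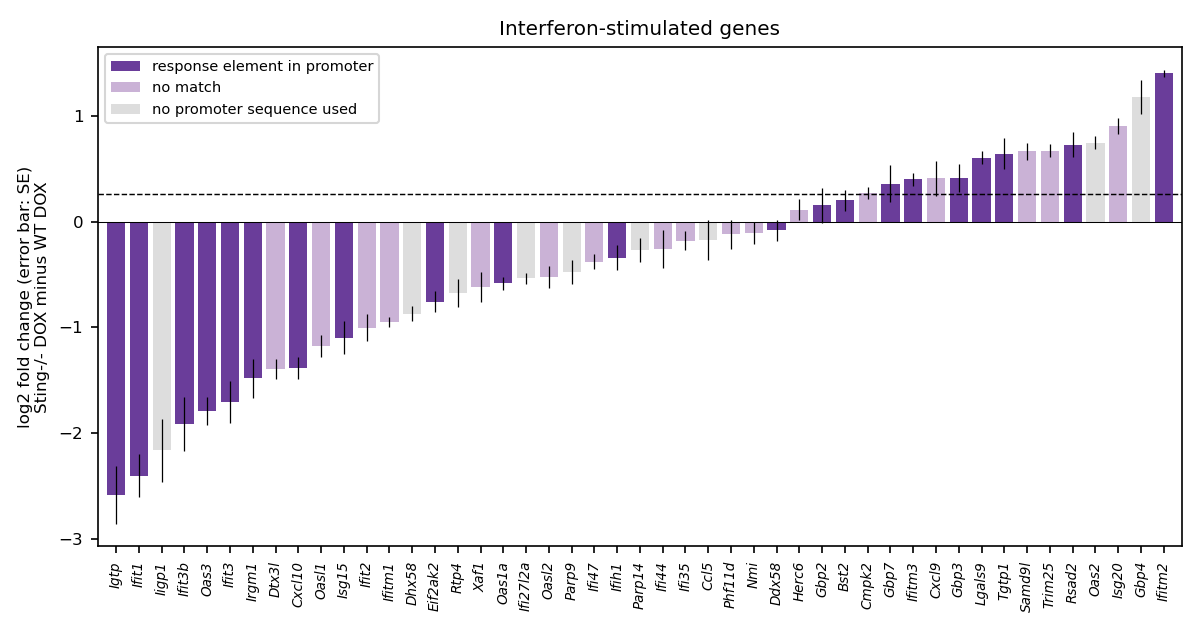
Log2 fold change (y axis, error bars are SE) of the 47 tested interferon-stimulated genes (x axis), coloured by whether the promoter holds the response element. Genes with the element stand at both ends, from Igtp at -2.59 to Ifitm2 at 1.41.

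NF-kB-responsive genes were mostly lower, with Ccl2, Lcn2, Il1r2 and Ccl7 at the low end. Of 30 tested, 18 were lower, 9 higher and 3 not called (median -0.64). The shares lower and higher were 60% and 30%, against 29.0% and 54.4% of all genes. Lcn2 and Il1r2 are also counted with the neutrophil markers below, and the part of neutrophil content in these values was not tested. Ccl2, the main monocyte chemoattractant, was at 120.3, 145 and 129.8 FPKM in WT DOX and 11.6, 11.8 and 11.9 FPKM in Sting-/- DOX (log2 fold change -3.37, SE 0.0639, limma adjusted p = 4.5e-11). Saline hearts had 3.61, 5.14 and 4.90 FPKM. Ccl7, a related monocyte chemokine (-2.67), and Cxcl5, a neutrophil chemokine (-1.94), were lower too. Lcn2, which encodes the iron-sequestering lipocalin of inflamed tissue, was at 67.8, 81.8 and 73.8 FPKM in WT DOX and 8.81, 10.5 and 9.5 FPKM in Sting-/- DOX (log2 fold change -2.83, SE 0.0787, limma adjusted p = 4.6e-10). Tnf was at 2.35, 2.5 and 2.70 FPKM in WT DOX and 2.58, 1.58 and 2.23 FPKM in Sting-/- DOX, low in every library, and was not called, though it was lower with median-ratio scaling (-0.36) and without Sting-/- DOX library 1 (-0.28). In the other direction, Saa3, an acute-phase apolipoprotein, was at 23.5, 38.3 and 29.1 FPKM in WT DOX and 107, 108 and 87.4 FPKM in Sting-/- DOX (log2 fold change 1.72, SE 0.148, limma adjusted p = 1.95e-06), with 0.55, 0.54 and 0.37 FPKM in saline hearts. Cxcl16 was higher (1.62). Of adhesion molecules, Icam1 was at 13.8, 11.4 and 12.5 FPKM in WT DOX and 37.6, 36.6 and 34.1 FPKM in Sting-/- DOX (log2 fold change 1.45, SE 0.07, limma adjusted p = 2.27e-08) and Vcam1 was higher by 0.60, while the endothelial selectins Sele and Selp, chosen after their values were seen, were lower (-0.87 and -0.85). Beside these values, the pan-endothelial markers were higher in 24 of 24 cases, with a summed level of 613 to 626 FPKM in WT DOX and 2519 to 2699 FPKM in Sting-/- DOX, and their part in the result was not tested.

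The kappa-B element, searched as GGGA, any base and TTTCC on both strands in the same promoter windows, was found in 49 of 10116 tested genes (0.484%). It was found in 4 of 23 genes of the inflammatory list with a promoter sequence (17.4%), in 4 of the 14 that were lower and in 0 of the 6 that were higher. The following 3 of these 4, chosen after their values were seen, show it in capitals in a window of 60 bases from the stretch before the start, written 5′ to 3′ with GRCm38.p6 coordinates.
Cxcl1, chr5:90891149-90891208, plus strand: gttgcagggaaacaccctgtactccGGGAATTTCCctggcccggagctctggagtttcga
Cxcl2, chr5:90903777-90903836, plus strand: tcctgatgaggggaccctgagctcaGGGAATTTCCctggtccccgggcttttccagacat
Il6, chr5:30013045-30013104, plus strand: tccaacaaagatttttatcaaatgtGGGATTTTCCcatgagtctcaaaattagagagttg
Cxcl1 and Cxcl2, which encode neutrophil chemokines, carry the same 10 letters, and their log2 fold changes were -1.07 and -1.40. Il6, the cytokine interleukin-6, was at 3.65, 4.95 and 5.22 FPKM in WT DOX and 3.46, 1.99 and 2.37 FPKM in Sting-/- DOX (-0.65).

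**Figure D4:**
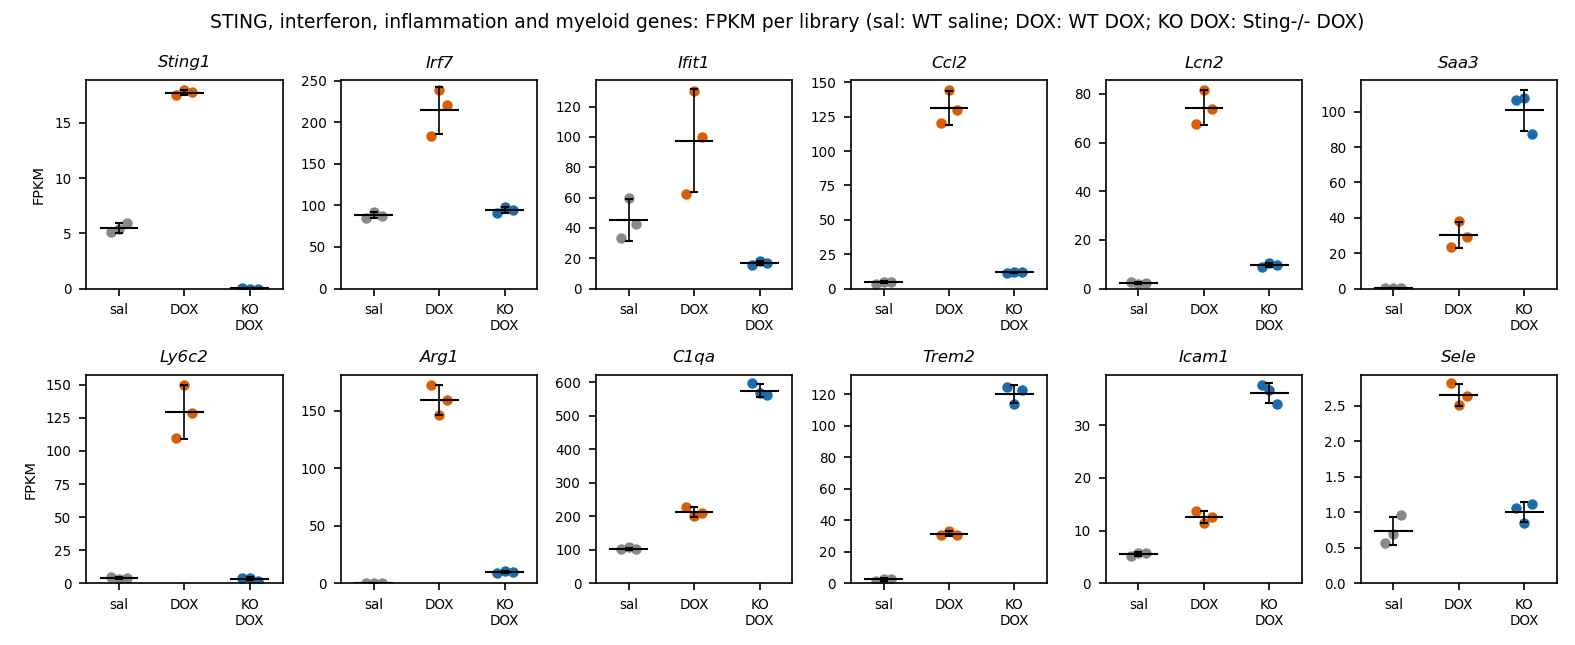
FPKM per library (y axes from 0) for 12 genes in WT saline, WT DOX and Sting-/- DOX (x axis), with points for libraries, the black line for the mean and bars for the SD. Ccl2, Lcn2, Ly6c2, Arg1 and Sele are high in WT DOX and low in Sting-/- DOX, while Saa3, Icam1, C1qa and Trem2 are highest in Sting-/- DOX.

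Myeloid genes moved in both directions, with Arg1, Chil3 and Ly6c2 lower and complement genes of macrophages higher. Markers of recruited monocytes were 10 higher and 7 lower of 19 (52.6% and 36.8%). Markers of resident macrophages were 12 higher and 5 lower of 19 (63.2% and 26.3%, median 0.54), and 10 higher and 7 lower under median-ratio scaling. Of all genes, 54.4% were higher and 29.0% lower. The monocyte list was thus not lower as a whole (median 0.30, against 0.26 for all genes). Some of its higher members are also counted with the matrix genes below, and Trem2 and Ms4a7 belong to it too. Its count and median therefore do not describe monocytes alone. Arg1, the arginase of alternatively activated and wound macrophages, was at 173, 146 and 159 FPKM in WT DOX and 8.85, 10.3 and 9.41 FPKM in Sting-/- DOX (log2 fold change -3.93, SE 0.0707, limma adjusted p = 3.6e-11). Chil3, a chitinase-like lectin of monocytes, was at 57.0, 51.5 and 53.6 FPKM in WT DOX and 3.01, 2.84 and 2.65 FPKM in Sting-/- DOX (log2 fold change -3.84, SE 0.0607, limma adjusted p = 1.9e-11). Ly6c2, the surface antigen of inflammatory monocytes, had a log2 fold change of -4.96, a value left uncertain by the near-identical Ly6c1. Plac8 (-1.82), Fcgr1 (-1.07) and Ccr2, the receptor for Ccl2 (-0.76), were lower. Against these, C1qa, a complement subunit made by macrophages, was at 228, 201 and 209.6 FPKM in WT DOX and 597, 567 and 560.4 FPKM in Sting-/- DOX (log2 fold change 1.43, SE 0.0505, limma adjusted p = 2.36e-09). C1qb and C1qc were higher by 1.26 and 1.18. Trem2, a lipid receptor of tissue macrophages, was at 30.4, 33.2 and 30.4 FPKM in WT DOX and 125, 114 and 123 FPKM in Sting-/- DOX (log2 fold change 1.91, SE 0.0522, limma adjusted p = 4.18e-10), and Ms4a7 (1.88), Gas6 (1.64) and Igf1 (1.93) were higher. Gas6 and Igf1 are also made by stromal cells. Of the resident macrophage markers that were lower, Siglec1 (-1.31) is interferon-induced, and F13a1 encodes a clotting factor subunit (-1.04).

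Neutrophil markers were lower in 12 of the 14 that passed the filter and higher in 0 (median -1.56). Without the filter 12 of the 15 markers were lower and 1 higher (median -1.54). Their summed level was 381 to 490.4 FPKM in WT DOX, 118 to 138 FPKM in Sting-/- DOX and 10.3 to 10.96 FPKM in saline. S100a9, a subunit of calprotectin, was at 86.8, 123 and 104 FPKM in WT DOX and 41.3, 33.3 and 31.1 FPKM in Sting-/- DOX (log2 fold change -1.54, SE 0.127, limma adjusted p = 1.37e-06). Slfn4 had the largest fall of the list (-3.37). Lymphoid markers, with 11 tested, were low throughout, 26.1 to 48.2 FPKM in sum per WT DOX library and 23.9 to 24.9 per knockout library. Gzmb, a granzyme of cytotoxic cells, was lower (-1.87) and so was Cd8a (-0.73, and -0.48 without WT DOX library 1), while the B cell gene Cd79b was higher (0.63). MHC class II genes were higher in 9 of 10 cases (median 0.63), with H2-Ab1 at 137, 90.6 and 116 FPKM in WT DOX and 264, 257 and 269 FPKM in Sting-/- DOX (log2 fold change 1.21, SE 0.118, limma adjusted p = 5.08e-06), and MHC class I genes in 12 of 16 (median 0.48). Psmb10, an immunoproteasome subunit, was lower (-0.39). H2 genes are similar in sequence, which makes their single values uncertain.

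Every tested gene of the adult sarcomere was lower, 25 of 25, with values from -3.55 to -0.50 and a median of -2.28. Their summed level was 62758 to 67243 FPKM in WT DOX, 13863 to 14363 FPKM in Sting-/- DOX and 80481 to 81193 FPKM in saline. Tnnt2, cardiac troponin T, was at 7949, 7724 and 7653 FPKM in WT DOX and 2694, 2768 and 3020.1 FPKM in Sting-/- DOX (log2 fold change -1.46, SE 0.0458, limma adjusted p = 1.07e-09, and -0.93 with quantile normalization). Myl3, the ventricular essential light chain, was at 4616, 4348 and 4539.6 FPKM in WT DOX and 485, 531 and 517 FPKM in Sting-/- DOX (log2 fold change -3.14, SE 0.0432, limma adjusted p = 1.02e-11). The estimates for these genes differ, and that difference was not tested. Of calcium and conduction genes, 23 of 26 were lower (median -1.85), among them Atp2a2, the calcium pump of the sarcoplasmic reticulum, at 1709, 1661 and 1713 FPKM in WT DOX and 196, 207 and 210.1 FPKM in Sting-/- DOX (log2 fold change -3.05, SE 0.0378, limma adjusted p = 8.93e-12), Ryr2, the calcium release channel (-2.70), and Slc8a1, the sodium-calcium exchanger (-2.91). Gja5, a connexin of atrial muscle, conduction fibres and arterial endothelium, was higher (1.748). Cardiac transcription factors were lower in 10 of 13, with Nkx2-5 at 67.0, 61.5 and 64.6 FPKM in WT DOX and 22.2, 19.4 and 19.1 FPKM in Sting-/- DOX (log2 fold change -1.63, SE 0.063, limma adjusted p = 4.64e-09), and Gata4 (-1.59), Tbx5 (-1.35) and Hand2 (-1.45) among them. Nr2f2, a factor of atrial muscle and venous endothelium, was higher (1.42).

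Of 16 stress and fetal genes of heart muscle, 9 were higher, 5 lower and 2 not called, shares (56.2% and 31.2%) close to the 54.4% and 29.0% of all genes. Nppa, atrial natriuretic peptide, was at 2614, 2958 and 2822 FPKM in WT DOX and 3646, 3629.8 and 3748 FPKM in Sting-/- DOX (log2 fold change 0.39, SE 0.0467, limma adjusted p = 2.2e-05), against 182, 212 and 215 FPKM in saline. Nppb, brain natriuretic peptide, was at 1271, 1315 and 1244 FPKM in WT DOX and 316, 287 and 290.4 FPKM in Sting-/- DOX (log2 fold change -2.10, SE 0.0448, limma adjusted p = 8.45e-11), against 209.9, 253 and 228 FPKM in saline. The natriuretic peptides thus differed in direction, and the groups did not overlap in either gene. The rise of Nppa was 0.13 under median-ratio scaling but 0.65 under quantile normalization. Myl7, the atrial regulatory light chain, was at 16.6, 12.6 and 12.6 FPKM in WT DOX and 28.2, 35.1 and 35.3 FPKM in Sting-/- DOX (log2 fold change 1.19, SE 0.114, limma adjusted p = 4.46e-06), while Ankrd2 (-3.32), a stretch-responsive muscle protein, and Myh7, the beta myosin heavy chain (-1.24), were lower.

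Nuclear genes for mitochondrial energy supply were lower with almost no exception. The 35 tested subunits of complex I, which passes electrons from NADH, were all lower, from -2.72 to -0.39 (median -1.37), and so were all 23 genes of pyruvate oxidation and the tricarboxylic acid cycle, from -3.03 to -1.58 (median -2.42). Ndufs1, a core subunit of complex I, was at 209, 212 and 219 FPKM in WT DOX and 29.6, 32.2 and 32.6 FPKM in Sting-/- DOX (log2 fold change -2.72, SE 0.0465, limma adjusted p = 2.94e-11). Mdh1, cytosolic malate dehydrogenase, was at 1002, 983 and 1014 FPKM in WT DOX and 118, 120.4 and 126 FPKM in Sting-/- DOX (log2 fold change -3.03, SE 0.0374, limma adjusted p = 8.93e-12). Pdha1, of pyruvate dehydrogenase, was lower (-2.69). Fatty acid uptake and oxidation genes were lower in 25 of 29 cases. Hadhb, of the trifunctional protein, was at 727, 727 and 738 FPKM in WT DOX and 73.1, 78.8 and 78.2 FPKM in Sting-/- DOX (log2 fold change -3.24, SE 0.0396, limma adjusted p = 8.93e-12), and Pdk4, the kinase that shuts off pyruvate dehydrogenase in fasting, was at 149, 121 and 132 FPKM in WT DOX and 6.76, 6.09 and 7.43 FPKM in Sting-/- DOX (log2 fold change -4.12, SE 0.0836, limma adjusted p = 6.51e-11). The exceptions, 4 in number, included Fabp4, a fatty acid carrier of capillary endothelium and fat cells, at 880.0, 1008 and 999 FPKM in WT DOX and 4641, 4994 and 4839.6 FPKM in Sting-/- DOX (log2 fold change 2.33, SE 0.0551, limma adjusted p = 1.63e-10). Fabp3, the form of muscle, and Fabp4 therefore moved oppositely.

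Regulators of mitochondria were lower in 19 of 24 cases (median -0.89). Ppara, the fatty-acid-responsive nuclear receptor, was at 7.53, 8.07 and 7.52 FPKM in WT DOX and 1.2, 1.28 and 1.24 FPKM in Sting-/- DOX (log2 fold change -1.96, SE 0.0709, limma adjusted p = 2.88e-09), Esrrb, an oestrogen-related receptor, had a log2 fold change of -2.40, and Mfn2, of mitochondrial fusion, one of -2.08. Nrf1 (0.51), Fis1 (0.37), of fission, and Bnip3l (0.65), of mitophagy, were higher. The sarcomere sums given above fell in the same libraries as these mitochondrial genes, and the part of heart muscle content in the mitochondrial result was not tested.

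Genes of NAD metabolism are given singly, since the shares of NAD consumers called higher and lower (50% and 27.8%) were close to those of all genes (54.4% and 29.0%). Of 18 tested NAD consumers, 9 were higher, 5 lower and 4 not called (median 0.10, against -0.14 with 6 higher and 9 lower under median-ratio scaling), and of 20 genes of synthesis, salvage and clearance 9 were higher and 7 lower. Cd38 (gene ID 12494), the NAD hydrolase the series is about, was at 8.88, 9.03 and 8.30 FPKM in WT DOX and 25.7, 28.01 and 27.2 FPKM in Sting-/- DOX (log2 fold change 1.52, SE 0.0559, limma adjusted p = 3.18e-09). Its level in saline was 5.94, 6.88 and 6.13 FPKM, so every knockout library was above every WT library with or without the drug. The paralog Bst1 went the other way, at 8.84, 9.42 and 9.40 FPKM in WT DOX and 3.51, 4.90 and 3.77 FPKM in Sting-/- DOX (log2 fold change -1.02, SE 0.0977, limma adjusted p = 4.3e-06). Parp1, the DNA damage polymerase that also consumes NAD, was at 19.4, 18.4 and 17.8 FPKM in WT DOX and 9.53, 10.03 and 9.91 FPKM in Sting-/- DOX (log2 fold change -0.85, SE 0.0543, limma adjusted p = 1.9e-07). Of the sirtuins, NAD-dependent deacylases, the mitochondrial Sirt3 (-0.70) and Sirt5 (-1.50) were lower, Sirt4 was not called (-0.11, and called lower at -0.22 without Sting-/- DOX library 2), and the nuclear Sirt6 (0.63) and Sirt7 (1.25) were higher.

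On the supply side, Nampt, the rate-limiting salvage enzyme from nicotinamide, was at 50.4, 69.3 and 56.8 FPKM in WT DOX and 18.7, 18.0 and 18.6 FPKM in Sting-/- DOX (log2 fold change -1.61, SE 0.0952, limma adjusted p = 1.06e-07). Nmrk2 (gene ID 69564), the muscle kinase for nicotinamide riboside, was at 333, 255 and 279 FPKM in WT DOX and 14.8, 15.5 and 14.3 FPKM in Sting-/- DOX (log2 fold change -4.18, SE 0.0846, limma adjusted p = 6.37e-11), while saline hearts had 10.6, 9.83 and 9.73 FPKM. The knockout level under doxorubicin was thus close to the WT level without it. Nmrk1, the kinase of other tissues, was at 3.74, 4.24 and 4.63 FPKM in WT DOX and 8.90, 9.91 and 10.5 FPKM in Sting-/- DOX (log2 fold change 1.05, SE 0.0841, limma adjusted p = 1.11e-06). The gene Nnt, for the mitochondrial transhydrogenase that makes NADPH from NADH, was at 80.5, 75.5 and 79.7 FPKM in WT DOX and 14.0, 14.2 and 14.2 FPKM in Sting-/- DOX (log2 fold change -2.39, SE 0.0445, limma adjusted p = 4.21e-11), after 330.4, 300.3 and 319 FPKM in saline, so its order was saline, WT DOX, Sting-/- DOX with no overlap. Nnmt, which methylates nicotinamide for clearance, was at 8.82, 9.25 and 9.12 FPKM in WT DOX and 31.9, 32.9 and 34.5 FPKM in Sting-/- DOX (log2 fold change 1.76, SE 0.0514, limma adjusted p = 6.49e-10). Nadk, the cytosolic NAD kinase, was higher (0.83), as was Nadsyn1, NAD synthetase (0.82). Nnt is abundant in heart muscle and Cd38 in endothelium and leukocytes, while Nmrk2, a muscle gene, was at only 9.73 to 10.6 FPKM in saline hearts. The part of the marker sums given above and below in the values of these genes was not tested.

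**Figure D5:**
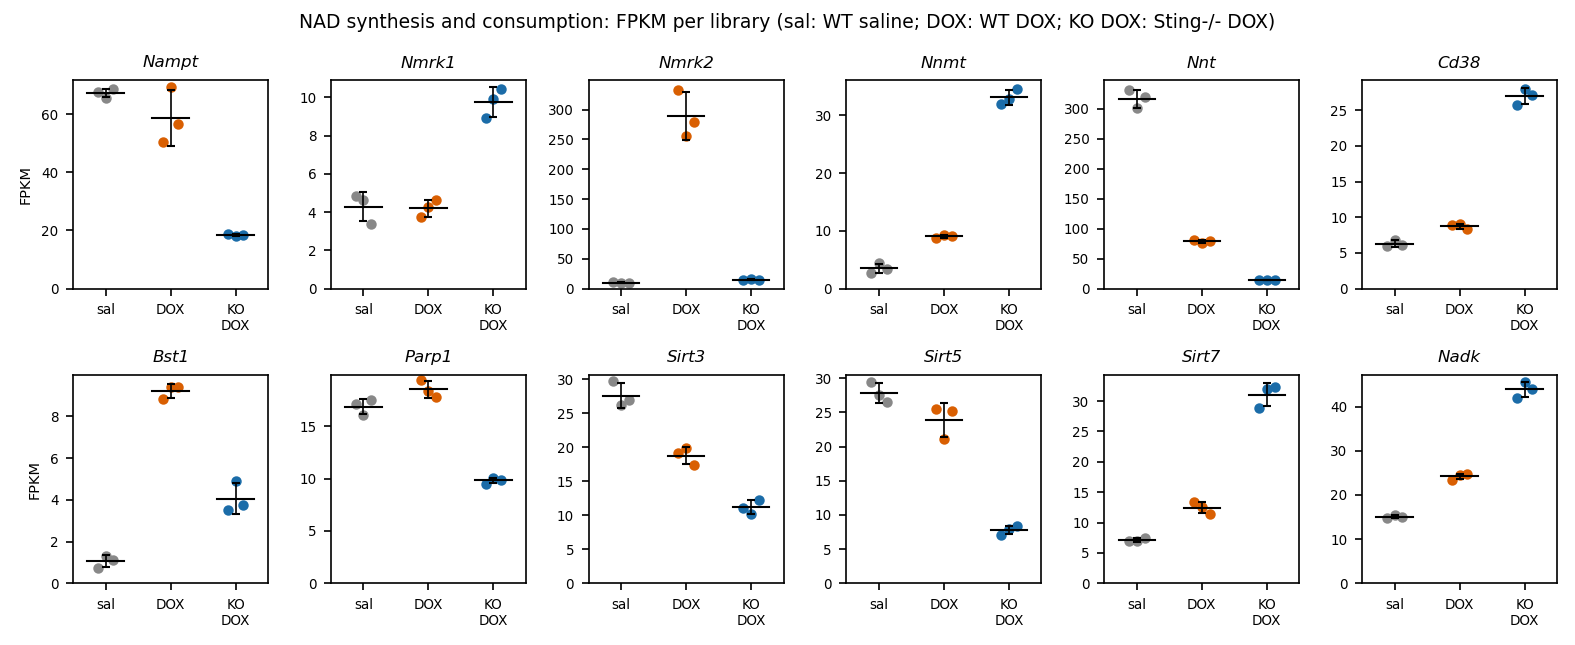
FPKM per library (y axes from 0) of 12 genes of NAD synthesis and consumption in WT saline, WT DOX and Sting-/- DOX (x axis), with points for libraries, the black line for the mean and bars for the SD. Cd38, Nmrk1 and Nnmt are highest in Sting-/- DOX, whereas Nmrk2 and Bst1 are highest in WT DOX.

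All 24 tested pan-endothelial markers were higher, from 1.11 for Ecscr to 2.64 for Cldn5 (median 2.02). Cdh5, VE-cadherin of endothelial junctions, was at 47.5, 51.2 and 47.4 FPKM in WT DOX and 191, 200.2 and 209 FPKM in Sting-/- DOX (log2 fold change 2.01, SE 0.0485, limma adjusted p = 1.82e-10), and in saline at 53.04, 53.2 and 53.7 FPKM. Kdr, the main VEGF receptor, was at 22.5, 20.5 and 20.7 FPKM in WT DOX and 106, 111 and 114 FPKM in Sting-/- DOX (log2 fold change 2.32, SE 0.0511, limma adjusted p = 9.91e-11). Cldn5, of tight junctions, was at 12.7, 12.4 and 12.7 FPKM in WT DOX and 74.2, 92.0 and 85.6 FPKM in Sting-/- DOX (log2 fold change 2.64, SE 0.0713, limma adjusted p = 3.85e-10). The WT groups, with and without doxorubicin, were thus closer to each other in Cdh5 than either was to the knockout libraries. Of subtype markers, 18 of 21 were higher. The capillary genes Car4 (3.31), Rgcc (2.66) and Gpihbp1 (2.26), which carries lipoprotein lipase, had larger estimates than the arterial genes Efnb2 (1.79) and Dll4 (1.44), and the difference was not tested. Prox1, the lymphatic factor that heart muscle also makes, was lower (-1.65). Klf2 and Klf4, flow-responsive factors of endothelium that are counted below with the immediate early genes, were higher by 2.33 and 2.42.

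Matrix genes were higher in the knockout hearts in nearly every case. All 26 collagen and collagen-processing genes were higher (median 1.96), and 27 of 28 matricellular proteins and proteoglycans (median 2.09). Col1a1, of type I collagen, was at 125, 127 and 126 FPKM in WT DOX and 2059, 1942 and 1962 FPKM in Sting-/- DOX (log2 fold change 3.97, SE 0.0359, limma adjusted p = 6.41e-12), against 15.1, 16.1 and 15.6 FPKM in saline. Eln, elastin, was at 13.4, 16.0 and 15.7 FPKM in WT DOX and 609, 585 and 568 FPKM in Sting-/- DOX (log2 fold change 5.20, SE 0.0635, limma adjusted p = 8.93e-12). Postn, periostin of activated fibroblasts, was at 170.5, 187 and 183 FPKM in WT DOX and 1503, 1368 and 1402 FPKM in Sting-/- DOX (log2 fold change 2.98, SE 0.0486, limma adjusted p = 2.28e-11). Each rose above WT DOX in all 3 libraries. Cthrc1, a marker of matrix-producing fibroblasts (4.22), Thbs2 (4.07) and the cross-linking enzyme Lox (2.95) were higher. The exception was Spp1, osteopontin, at 563, 564 and 588 FPKM in WT DOX and 255, 228 and 227 FPKM in Sting-/- DOX (log2 fold change -1.27, SE 0.0492, limma adjusted p = 4.65e-09).

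Growth factor genes of the matrix followed in part. Of 23 TGF-beta genes, 17 were higher, 3 lower and 3 not called (median 0.96). The ligand Tgfb3 was at 8.50, 9.56 and 9.90 FPKM in WT DOX and 89.9, 82.4 and 84.9 FPKM in Sting-/- DOX (log2 fold change 3.07, SE 0.0616, limma adjusted p = 6.01e-11), and the latent binding proteins Ltbp2 (3.69), Ltbp3 (2.23) and Ltbp4 (2.44) were higher. Tgfbi, an adhesion protein induced by TGF-beta, was lower (-0.84). Of 23 Wnt genes with values, 14 passed the filter, and 10 of these were higher and 0 lower (median 1.65). A low gene can pass through its high group alone. Without the filter 15 of 23 were higher and the median was 0.95, while median-ratio scaling and quantile normalization each called 2 lower. Examples were the secreted modulators Sfrp1 (3.69), Frzb (2.45) and Dkk3 (3.74) and the ligand Wnt4 (2.31). Imprinted and perinatal growth genes were higher in 11 of the 12 that passed the filter (median 1.64) and in 13 of 17 without it (median 1.19). Ptn, the heparin-binding growth factor pleiotrophin, was at 3.22, 5.06 and 4.02 FPKM in WT DOX and 171, 166 and 159.5 FPKM in Sting-/- DOX and Mdk, its relative midkine, at 2.93, 2.57 and 3.10 FPKM in WT DOX and 118, 123 and 119.6 FPKM in Sting-/- DOX (log2 fold changes 5.04 and 4.98). Igf2, the fetal growth factor, was at 13.8, 12.4 and 13.1 FPKM in WT DOX and 70.2, 76.5 and 75.7 FPKM in Sting-/- DOX (log2 fold change 2.41, SE 0.054, limma adjusted p = 1.1e-10). A difference in age between the groups cannot be told apart from the genotype in these values. Cdkn1c, an imprinted inhibitor of the cell cycle, was higher by 3.53.

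Most stromal markers were higher too, but some fibroblast markers, type I collagen among them, are already counted with the matrix genes above. Fibroblast markers were higher in 16 of 19 (median 1.45), with Tcf21, a fibroblast transcription factor, at 8.23, 8.08 and 7.75 FPKM in WT DOX and 22.6, 23 and 19.4 FPKM in Sting-/- DOX (log2 fold change 1.33, SE 0.0696, limma adjusted p = 4.3e-08), whereas Pdgfra, a receptor that most cardiac fibroblasts carry, was not called (9.25, 10.1 and 9.55 FPKM in WT DOX and 9.20, 8.95 and 9.11 FPKM in Sting-/- DOX). The sum of the fibroblast markers, which includes type I collagen, was 1738 to 1911 FPKM in WT DOX and 6650.1 to 6882 FPKM in Sting-/- DOX. Smooth muscle and pericyte markers were higher in 12 of 17 and lower in 4 (70.6% and 23.5%, against 54.4% and 29.0% of all genes). Their sum went the other way, at 4208 to 4310 FPKM in WT DOX and 1928 to 2012 FPKM in Sting-/- DOX. Members shared with the heart muscle lists above, the lowest at -3.10, are part of that sum. Myh11, smooth muscle myosin, was at 2.66, 3.33 and 3.02 FPKM in WT DOX and 23.1, 25.5 and 23.9 FPKM in Sting-/- DOX (log2 fold change 2.65, SE 0.0743, limma adjusted p = 4.77e-10), and Tagln (3.43) and Cnn1 (2.87) rose, while the pericyte gene Rgs5 differed less (0.55) and Abcc9, which heart muscle shares, was lower (-1.56).

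Genes of tissues that line or anchor the heart were also higher. Mesothelial markers were higher in 11 of the 13 that passed the filter (median 1.80) and in 13 of 15 without it (median 1.70). Members such as Msln and Upk3b passed it only through the knockout group. The sum of the mesothelial markers was 91.8 to 95.5 FPKM in WT DOX and 170.2 to 179 FPKM in Sting-/- DOX. Upk3b, a surface protein of mesothelium, was at 0.19, 0.43 and 0.31 FPKM in WT DOX and 19.7, 18.5 and 21.5 FPKM in Sting-/- DOX (log2 fold change 3.998, SE 0.0899, limma adjusted p = 1.14e-10), and the epicardial factor Wt1 was at 1.56, 1.80 and 1.80 FPKM in WT DOX and 14.2, 14.3 and 14.5 FPKM in Sting-/- DOX (log2 fold change 2.498, SE 0.066, limma adjusted p = 3.32e-10). Cartilage, tendon and valve genes were higher in 13 of 14 tested, with 9 others below the filter. Members such as Comp and Acan passed it only through the knockout group, and without the filter 19 of 22 were higher, with a median of 1.46 in place of 2.48. Sox9, a factor of cartilage and valve cells, was at 1.01, 1.36 and 1.32 FPKM in WT DOX and 10.98, 10.5 and 11.6 FPKM in Sting-/- DOX (log2 fold change 2.43, SE 0.0837, limma adjusted p = 2.01e-09), and Acan, aggrecan, at 0.01, 0.01 and 0.01 FPKM in WT DOX and 5.09, 4.73 and 4.75 FPKM in Sting-/- DOX. Of 8 tested skeletal muscle genes 6 were higher and 2 lower (11 and 2 of 15 without the filter), and their sum was 1203 to 1334 FPKM in WT DOX and 476 to 522 FPKM in Sting-/- DOX. The lower ones were Ckm (-1.99) and Acta1 (-1.09), a creatine kinase and an actin that heart muscle also makes. Mylpf, a light chain of fast skeletal muscle, was at 0.37, 1.60 and 0.93 FPKM in WT DOX and 9.34, 6.34 and 8.61 FPKM in Sting-/- DOX (log2 fold change 2.24, SE 0.211, limma adjusted p = 3.88e-06). Haemoglobin genes were higher, with Hbb-bs at 662, 650.3 and 695 FPKM in WT DOX and 3305, 3766 and 3535 FPKM in Sting-/- DOX (log2 fold change 2.40, SE 0.0504, limma adjusted p = 7.66e-11, uncertain because haemoglobin copies are alike), and Alas2, the haem enzyme of red cells, by 2.51. How much lining, valve, vessel wall or blood each heart sample held was not measured, and the part of these markers in the matrix and endothelial values was not tested.

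Genes of the drug response were examined next. Top2b, the topoisomerase through which doxorubicin acts in non-dividing heart muscle, was at 17.9, 19.2 and 18.5 FPKM in WT DOX and 19.2, 18.1 and 18.0 FPKM in Sting-/- DOX and was not called, though it was lower with median-ratio scaling (-0.26). Of 14 targets, carriers and reducing enzymes, 8 were higher, 2 lower and 4 not called. The shares higher and lower (57.1% and 14.3%) stood beside 54.4% and 29.0% of all genes. Median-ratio scaling gave 6 higher and 4 lower. Among the higher ones were Abcb1a, an efflux pump of endothelium (1.74), and Cbr3, a carbonyl reductase (1.46). The gene of p53 and its direct targets were higher in 12 of 21 and lower in 5, shares (57.1% and 23.8%) near those of all genes. Cdkn1a, the p21 inhibitor, was at 49.0, 58.5 and 53.2 FPKM in WT DOX and 73.7, 81.4 and 80.8 FPKM in Sting-/- DOX (log2 fold change 0.55, SE 0.0665, limma adjusted p = 2.74e-05), Bbc3, the death protein PUMA, was higher by 1.95, and Ccng1 was lower (-1.70). Antioxidant and iron genes were lower in 12 of 19. Sod2, mitochondrial superoxide dismutase, was at 155, 146 and 148 FPKM in WT DOX and 32.0, 30.8 and 33.0 FPKM in Sting-/- DOX (log2 fold change -2.198, SE 0.044, limma adjusted p = 5.96e-11), and Hmox1, haem oxygenase, at 148, 149 and 152 FPKM in WT DOX and 69.2, 64.3 and 66.2 FPKM in Sting-/- DOX (log2 fold change -1.16, SE 0.0405, limma adjusted p = 2.25e-09). Nqo1 (-2.29) and the transferrin receptor Tfrc (-2.37) were lower, while Gpx3, the secreted glutathione peroxidase (2.198), was higher. Cell cycle genes were higher in 18 of 28 by small amounts (median 0.30, close to all genes, and 9 higher with 8 lower under median-ratio scaling), with Mki67 at 5.56, 5.42 and 4.70 FPKM in WT DOX and 7.40, 7.69 and 7.74 FPKM in Sting-/- DOX (log2 fold change 0.47, SE 0.0714, limma adjusted p = 0.000144).

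Of 18 clock genes, 6 were higher and 12 lower. Arntl, which encodes the activator BMAL1, was at 1.92, 1.81 and 1.99 FPKM in WT DOX and 17.2, 19.2 and 18.0 FPKM in Sting-/- DOX (log2 fold change 2.72, SE 0.0655, limma adjusted p = 1.83e-10). Npas2 (1.41), which encodes a partner of BMAL1, and Cry1 (0.80) were higher too. Dbp, an output factor driven by BMAL1, was at 52.8, 48.8 and 52.2 FPKM in WT DOX and 3.22, 2.69 and 2.53 FPKM in Sting-/- DOX (log2 fold change -3.78, SE 0.0734, limma adjusted p = 5.26e-11). Nr1d1, the repressor REV-ERB alpha, was at 37.3, 32.2 and 36.0 FPKM in WT DOX and 4.36, 4.28 and 5.80 FPKM in Sting-/- DOX (log2 fold change -2.64, SE 0.0991, limma adjusted p = 3.67e-09), and Nr1d2 (-2.04), Tef (-1.51) and Hlf (-1.32) were lower. In saline Arntl was at 1.30, 1.88 and 1.33 FPKM and Dbp at 103, 78.9 and 94.7 FPKM. The time of day at which hearts were taken is not given in the sources used here, and a difference in it cannot be told apart from the group. Immediate early genes, which respond to handling, were higher in 14 of 18, with Klf4 the highest at 2.42, Ier2 at 1.44 and Dusp1 at 1.16. Klf2, given above with the endothelial genes, is on this list too.

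Of 16 genes often used as references, 7 were higher, 5 lower and 4 not called (median 0.08). The shares higher and lower (43.8% and 31.2%) stood beside 54.4% and 29.0% of all genes. Actb, beta actin, was higher (1.62) and Gapdh, of glycolysis, lower (-0.98). Hprt was not called, at 64.0, 62.6 and 63.5 FPKM in WT DOX and 59.3, 61.6 and 55.6 FPKM in Sting-/- DOX, but was called lower without Sting-/- DOX library 2 (-0.14). Cytosolic ribosomal protein genes were higher in 24 of 26 (median 0.49) beside the 0.26 of all genes. Y-linked genes were present in all libraries of both groups, with Ddx3y at 19.3 to 21.6 FPKM in WT DOX and 17.9 to 19.1 FPKM in Sting-/- DOX.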

How the data were processed

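RNA of whole hearts was sequenced from 3 WT saline, 3 WT DOX and 3 Sting-/- DOX samples, grouped by their titles. The authors deposited 1 table of FPKM per library. Per the submitters' processing notes, HISAT2 2.0.4, Bowtie2 2.2.5 and RSEM 1.2.12 were used with the GRCm39 build, in no stated order. The FPKM scale is set by each library's total, so abundant genes shift all others, and RSEM shares reads among similar genes. Gene IDs were matched to RefSeq symbols of GRCm38.p6 (16825 matched, 48 did not). That build differs from the files', so its coordinates are given only for RefSeq promoter sequences.

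The test was limma 3.58.1 in R 4.3.3 on log2(FPKM + 1) (trended variance prior, 6 libraries, 4 residual degrees of freedom), two-sided, on genes averaging at least 1 FPKM, with Benjamini-Hochberg adjustment over all 12652 genes. Gene lists are described by counts and medians, without a test. The comparison, its lists and tests were chosen with earlier results of these data known. Genes named are a panel, the 12 largest rises and falls averaging at least 5 FPKM in the higher group (predicted genes left out), and up to 5, 3 and 2 called, opposite and uncalled members of each list. Markers of cell types, references, sex-linked genes and Sting1 neighbours may be named too, and others are said to be chosen after their values were seen. Some members of the lists are not reported here by name.

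Depth was estimated from the whole-read steps of low values of 1344 genes with 1 transcript. Only 46.7% to 61% of values lay within 0.1 reads of a whole number, so it is approximate and no counts were recovered. Same-numbered libraries of the groups did not deviate together (correlations -0.014, -0.035 and -0.024), so numbers were not used as pairs. On simulated data for this comparison (12141 genes), 86% of genes changed by 0.5 and 97% of those changed by 1 on the log2 scale were recovered. The alternatives changed the scaling, the low-value filter, the pseudocount or the variance trend, put all 9 libraries in 1 fit, added a replicate block, or left out each library in turn. Python 3.11.15, numpy 2.4.6, pandas 2.3.3 and matplotlib 3.10.9 were used for tables and figures.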

Additional observations from a re-analysis of the deposited data

How the results depend on the processing

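Of the 214 genes named, 203 kept their side of the threshold in every alternative run that tested them. The called genes among these 203 kept their direction. A gene that the filter of a run left out was not compared in that run. Direction was not compared where a gene was uncalled both as deposited and in the alternative. With the deposited values, a pseudocount of 0.1, all 9 libraries in 1 fit or no variance trend gave 6869 to 6912 genes higher and 3643 to 3697 lower. TPM scaling gave 7232 and 3373, no filter 7932 and 3926, and a mean of at least 5 FPKM, which tests fewer genes, 4976 and 3014. Median-ratio scaling gave 5305 and 4917 and quantile normalization 5283 and 4926, of which 1480 were at least 2-fold higher, against 2222 as reported. The median of all genes moved from 0.26 to 0.03 and 0.02. Both scalings put 7 genes beside Sting1 lower, against 4. Values that changed sign, with a call in either fit, were Tbk1 (-0.063 with median-ratio scaling, -0.078 with quantile normalization), Cgas, not called as deposited (-0.27 with quantile normalization), and Ube2d2a (-0.022 with median-ratio scaling). Genes not called as deposited that both scalings called lower included Sirt4, Pdgfra, Top2b, Tnf, Hprt and Ddx3y. The cause of these changes was not tested.

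Leaving out any single library gave 6645 to 6767 genes higher and 3501 to 3579 lower, and changed the call of 5 genes named, which are Tbk1, Tnf, Sirt4, Hprt and Adipoq. A replicate block gave 6827 higher and 3620 lower and changed the call of no single gene named, but moved list counts by 1 or 2 genes, with interferon-stimulated genes at 15 higher and 24 lower in place of 13 and 23. The replicate numbers do not pair the samples.

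At an approximate depth of 8300000 to 8500000 fragments in Sting-/- DOX, genes near 1 FPKM rest on few reads. Their fold changes depend on the pseudocount. With 0.1, Acan was at 5.49 in place of 2.54 and Ankrd2 at -5.09 in place of -3.32.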

Other observations

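Some genes of minor heart tissues also differed. Of 7 tested glial and neural markers, 5 were higher and 2 lower (7 and 2 of 13 without the filter). S100b, a calcium-binding protein of Schwann cells, was at 0.32, 0.57 and 0.33 FPKM in WT DOX and 3.59, 2.93 and 3.06 FPKM in Sting-/- DOX (log2 fold change 1.58, SE 0.109, limma adjusted p = 3.54e-07), while Dbh, the noradrenaline-making enzyme of sympathetic fibres, was lower (-0.68). Of 9 tested fat cell markers, 5 were higher and 2 lower, and Cfd and Adipoq varied between WT DOX libraries. Cfd, the adipokine adipsin, was at 9.86, 44.3 and 29.2 FPKM in WT DOX and 67.1, 74.6 and 67.7 FPKM in Sting-/- DOX, and Adipoq, adiponectin, was at 1.81, 9.79 and 6.55 FPKM in WT DOX and 9.38, 9.41 and 8.02 FPKM in Sting-/- DOX and was called higher only without WT DOX replicate 2 (log2 fold change 1.11, limma adjusted p = 0.0125). Cidea, a lipid droplet protein, was at 39.1, 36.5 and 35.5 FPKM in WT DOX and 6.04, 4.77 and 5.42 FPKM in Sting-/- DOX (log2 fold change -2.57, SE 0.0762, limma adjusted p = 7.09e-10). The platelet gene Pf4 was lower (-1.13) although the haemoglobin genes were higher.

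Among the genes tested, the one with the highest FPKM in each knockout library was Gm20594, chosen after its values were seen, which RefSeq also lists as Mtrnr2l. It was at 1849, 2588 and 2248 FPKM in WT DOX and 9042, 10367 and 9956 FPKM in Sting-/- DOX. All other FPKM values of a library share a total with it.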
